A study of Mus musculus with 23 samples.

Results

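The secreted regulators of Wnt signalling described here are 6 Wnt ligands (Wnt2b, Wnt4, Wnt5a, Wnt5b, Wnt6 and Wnt11), 3 R-spondins (Rspo1, Rspo2 and Rspo3) and the inhibitor Sfrp1. They were taken as the probe sets whose only gene symbol in the platform annotation was 1 of these names. That gave 10 genes of 18201 named by a single symbol, and 22 probe sets of 45037 other than controls. Rspo3, Sfrp1, Wnt4, Wnt5a, Wnt11 and Wnt6 were bright enough to be tested, so 6 of the 10 genes stand in the main test, which covered 12464 genes. Rspo1, Rspo2, Wnt2b and Wnt5b lay below the filter and are described apart.

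Wnt proteins are secreted, lipid-modified ligands that bind Frizzled receptors. With the co-receptors Lrp5 and Lrp6 they stabilise beta-catenin, and with Ror2 and related receptors they act on cell polarity and movement without it. R-spondins bind Lgr4, Lgr5 or Lgr6 together with the ubiquitin ligases Rnf43 and Znrf3, which keeps Frizzled at the cell surface and strengthens the response to a Wnt ligand. Secreted frizzled-related proteins such as Sfrp1 bind Wnt proteins outside the cell. In the intestine these signals come largely from mesenchymal cells beneath the crypts and maintain the epithelial stem cells.

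The samples were colons of C57BL/6J mice, an inbred laboratory strain, aged 12 to 14 weeks. The later groups drank water with 3% dextran sulfate sodium (DSS), a polymer that injures the colon lining, and separate cohorts were taken at day 0 (untreated, 5 mice), day 2, day 4 and day 6 (6 mice each). Each mouse gave total RNA for 1 Affymetrix Mouse Genome 430 2.0 array, 23 arrays in all, and no mouse was measured on more than 1 day. The piece of colon taken is not given in the sources used here, and every group after day 0 had DSS, so time without DSS is not part of the design. Values are the authors' linear MAS5 signal intensities. A probe set's signal is compared across arrays and not with that of another probe set.

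The arrays were alike in overall brightness, with medians of 97.3 to 121 after the authors had set every array's trimmed mean to 500. Colon epithelium markers (Epcam, Cdh1, Krt8, Krt20, Vil1 and Cdx2) had summed signals of 77594 to 83655 on day 0 and 80254 to 88805 on day 2. Their sums were 64221 to 81222 on day 4 and 67865 to 86093 on day 6. Technical controls moved with the days. The spiked hybridization controls lay at 10.8 to 11.2 on day 4 and 10.7 to 11.1 on day 6 (log2 signal), below the lowest array of day 0, at 11.3. The beta-actin 3′ to 5′ ratio was 0.53 to 0.70 on day 4 and 0.47 to 0.59 on day 6 (log2), above the highest array of day 0, at 0.45. Markers of neighbouring tissues varied between arrays. Pancreatic genes summed to 108276 on day 2 mouse 6 and 31299 on day 6 mouse 1, against 8864 to 11451 on day 0. The other arrays of day 6 lay below all of day 0 for these genes, at 2515 to 8245. Squamous genes summed to 575 on day 2 mouse 8 and 837 on day 4 mouse 8, against 5381 to 9317 on day 0. Tissue makeup, handling and day cannot be told apart where they follow each other. Nothing in the labels says more of the replicates than that they were different mice.

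Transcripts of Rspo3, and of Sfrp1 by its brightest probe set, rose through the course of DSS. The rise of Sfrp1 by day 4 was not shared by all its probe sets, while that at day 6 was. Wnt5a, by its brightest probe set, was higher at days 4 and 6, and Wnt4 was higher at day 6. None of the tested genes fell on any day. Each change is a difference of mean log2(signal + 16) with its standard error from limma, and a gene was called at an adjusted p of 0.05 or less (Benjamini-Hochberg over all genes tested). At day 2 against day 0, 0 of the 6 genes were called higher and 0 lower by limma, where 0.0160% and 0.0642% of all genes were called. At an unadjusted p under 0.05, 3 of the 6 were higher (Rspo3, Sfrp1 and Wnt5a), where 6.61% of all genes were. At day 4 against day 0, 3 of 6 were called higher (Rspo3, Sfrp1 and Wnt5a), where the background was 12.1% of all genes, and 0 were called lower, where it was 4.32%. At day 6 against day 0, 4 of 6 were called higher (Rspo3, Sfrp1, Wnt4 and Wnt5a), with 18.1% of all genes higher, and 0 were called lower, with 14.3% of all genes lower. None of the 6 was lower at an unadjusted p under 0.05 in any of these comparisons. The comparisons share the 5 arrays of day 0, so their counts are not independent of each other.

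**Figure D1:**
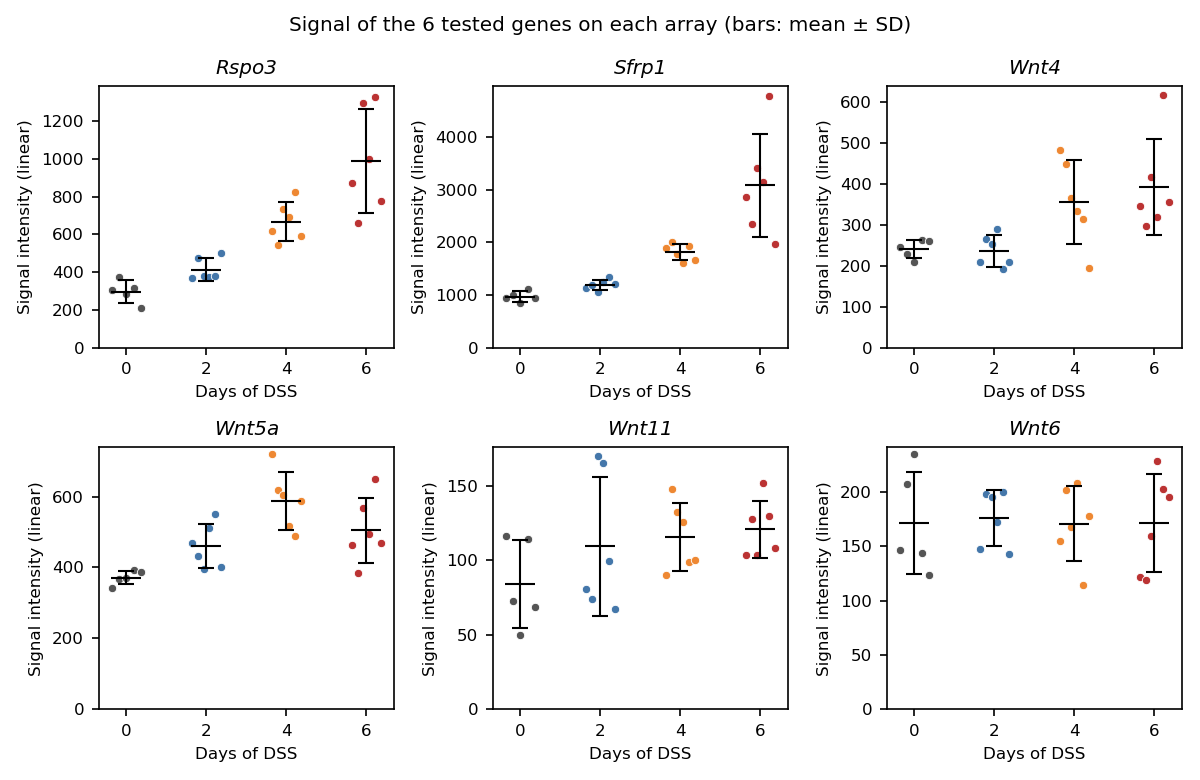
Signal intensity (MAS5, linear) of the 6 tested genes on every array at days 0, 2, 4 and 6, 1 panel per gene, with the mean and SD of each day (n = 5 on day 0 and 6 on each later day). The means of Rspo3 and Sfrp1 are higher at each later day, though arrays of days 0 and 2 overlap, as do those of days 4 and 6. The mean of Wnt5a is highest at day 4, and Wnt6 stays near 171 to 176 on average.

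Rspo3, the R-spondin known in mouse colon as a product of the stroma beneath the crypts, lies on chromosome 10 (29453106 to 29535867, GRCm38.p6). Its probe set 1455607_at read 209, 284, 304, 315 and 373 on the 5 arrays of day 0. The lowest, median and highest signals were 369, 378 and 501 at day 2, 546, 653 and 824 at day 4, and 661, 936 and 1329.6 at day 6. All arrays of day 4 and of day 6 lay above all of day 0, those of day 4 lay above all of day 2, and 1 array of day 0 reached into the range of day 2. Groups lying wholly apart in the upward direction were 7.61% of all genes at day 4 and 9.94% at day 6 against day 0, and 4.20% at day 4 against day 2. On the log2 scale Rspo3 was higher by 1.13 ± 0.16 at day 4 (2.20-fold, adjusted p = 0.000188 in limma) and by 1.66 ± 0.16 at day 6 (3.16-fold, adjusted p = 1.07e-07). Day 2 stood 0.46 ± 0.16 above day 0 and was not called (adjusted p = 0.215). A second probe set, 1443187_at, stayed below its array's median everywhere and had daily means of 16.9, 15.3, 26.7 and 33.4.

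Rspo1, an R-spondin known in mouse for ovary development and as a growth factor for intestinal epithelium, was dim. Its probe set 1449319_at read 5.29, 6.78, 38.4, 39.4 and 47.6 on day 0. The lowest, median and highest signals were 28.7, 37.1 and 73.4 at day 2, 63.4, 81.2 and 94.6 at day 4, and 51.5, 100.3 and 203 at day 6. Every array of day 4 and of day 6 lay above all 5 of day 0, yet the signal passed its array's own median on 1 array alone, that of day 6 mouse 21, so the gene was not in the main test. Among tested genes, which leave Rspo1 out, 7.61% lay wholly apart upward at day 4 and 9.94% at day 6. No such share was counted for the dimmer probe sets. When all 45037 probe sets were fitted with no filter, Rspo1 was higher by 1.29 ± 0.30 at day 4 (adjusted p = 0.00695, limma) and by 1.56 ± 0.30 at day 6 (adjusted p = 0.000557). In that fit 4.31% of all probe sets were called higher at day 4 and 7.70% at day 6. Such signals are near the bottom of the array's range and the size of the change depends on the added 16. Rspo1 lies on chromosome 4 (124986401 to 125009102). The 250 bases before 1 annotated start are given because Rspo1, like Wnt4 below, stood above day 0 at day 6, and no promoter of Rspo3 or Sfrp1 is shown here. They cover chr4:124986180-124986429 on the plus strand, from RefSeq on GRCm38.p6, and are 66.8% G or C. Capitals in this and the later promoters mark a GC box (GGGCGG), a TCF/LEF core (ATCAAAG, the motif of the factors that bind beta-catenin) or a TATA box (TATAAA), each searched on both strands. Of 32851 windows of the same length, 32.7% hold a GC box, 3.21% a TCF/LEF core and 12.4% a TATA box, and the Rspo1 window holds none of these letters.
Rspo1: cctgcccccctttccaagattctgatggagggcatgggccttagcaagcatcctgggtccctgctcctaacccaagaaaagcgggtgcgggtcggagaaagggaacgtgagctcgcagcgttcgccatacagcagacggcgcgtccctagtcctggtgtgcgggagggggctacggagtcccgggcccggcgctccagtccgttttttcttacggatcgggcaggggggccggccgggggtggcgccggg

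Rspo2, the third R-spondin, was below its array's median on all 23 arrays for both of its probe sets. Probe set 1455893_at had daily means of 36.3, 47.0, 52.2 and 49.8, with arrays between 12.3 and 78.9. Probe set 1430104_at had daily means of 43.6, 44.6, 26.0 and 49.9, with arrays between 4.6 and 80.0. The groups overlapped at every pair of days for both. Neither was called in the fit without a filter, where the change at day 6 was 0.35 ± 0.29 for the first (adjusted p = 0.500 in limma) and 0.02 ± 0.40 for the second (adjusted p = 0.983).

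Sfrp1, the secreted frizzled-related protein that binds Wnt ligands, lies on chromosome 8 (23411383 to 23449632). Its brightest probe set, 1428136_at, read 847, 933, 944, 1007 and 1121 on day 0. The lowest, median and highest signals were 1061, 1205 and 1335 at day 2, 1617, 1833 and 2016 at day 4, and 1961, 3002 and 4775 at day 6. All arrays of day 4 and of day 6 lay above all arrays of day 0. Those of day 4 also lay above all of day 2. Groups lay wholly apart upward for 7.61% of all genes at day 4 and 9.94% at day 6 against day 0. At day 4 against day 2 the share was 4.20%. The arrays of day 6 spread more widely than those of any earlier day (SD 983 at day 6, against 102 at day 0). Sfrp1 was higher by 0.89 ± 0.14 at day 4 (1.86-fold, adjusted p = 0.00034, limma) and by 1.60 ± 0.14 at day 6 (3.03-fold, adjusted p = 3.39e-08). At day 2 it stood 0.30 ± 0.14 above day 0 and was not called (adjusted p = 0.374).

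The 5 probe sets of Sfrp1 agreed on day 6 and disagreed on day 4. In a fit of all kept probe sets, all 5 were called higher at day 6 against day 0, by 0.96 to 1.60 on the log2 scale, where 14.2% of kept probe sets were. At day 4, 1428136_at and 1460187_at were called higher (the second by 0.65 ± 0.19, adjusted p = 0.018 in limma), where 9.68% of kept probe sets were. The remaining 3 were not called, with changes of 0.23 ± 0.25 for 1416594_at, 0.23 ± 0.26 for 1438620_x_at and -0.05 ± 0.17 for 1448395_at. With each gene read as the mean of its kept probe sets, Sfrp1 had a change of 0.39 at day 4, which was not called (adjusted p = 0.0937), and 1.29 at day 6 (adjusted p = 2.3e-06). The name ending in _x_at marks a design whose probes may bind other transcripts too.

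**Figure D2:**
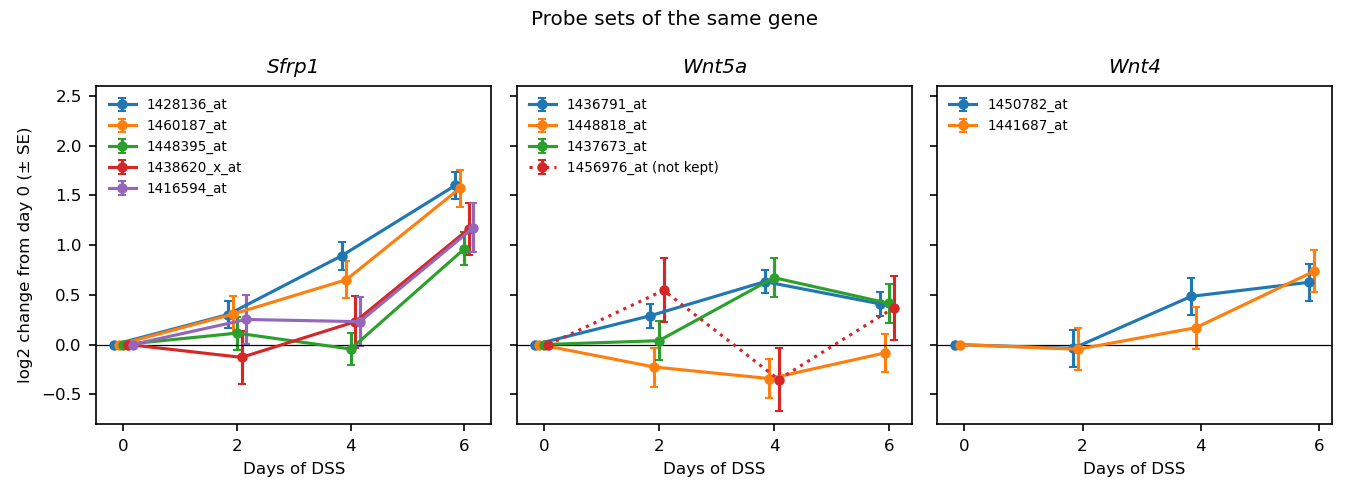
Log2 change against day 0 of each probe set of Sfrp1, Wnt5a and Wnt4 at days 2, 4 and 6 (day 0 drawn at 0), with standard errors from limma and the Wnt5a probe set that failed the filter dotted. The 5 Sfrp1 probe sets all lie between 0.96 and 1.60 at day 6 but spread from -0.05 to 0.89 at day 4, and 1 kept Wnt5a probe set, 1448818_at, lies below 0 at each day.

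Wnt4, a ligand needed in mouse for kidney tubules and the female reproductive tract, lies on chromosome 4 (137277635 to 137299501). Probe set 1450782_at read 209.5, 228, 245, 261 and 262 on day 0. The lowest, median and highest signals were 190.4, 231 and 290.0 at day 2, 195, 348 and 481 at day 4, and 296, 350.3 and 617 at day 6. All 6 arrays of day 6 lay above all 5 of day 0, as they did for 9.94% of all genes. Day 2 overlapped day 0, and day 4 did so with the lowest array, mouse 8 at 195. Wnt4 was higher by 0.63 ± 0.19 at day 6 (1.54-fold, adjusted p = 0.0118 in limma). Its day 4 change of 0.48 ± 0.19 was not called (adjusted p = 0.077), and without day 4 mouse 8, an array low in squamous genes, it was 0.64 and called (adjusted p = 0.0111). Leaving out day 6 mouse 21, which enters through the shared spread, also gave a call at day 4 (adjusted p = 0.044). The second probe set, 1441687_at, had means of 286 ± 48.1 at day 6 and 169 ± 47.2 at day 0 (SD, n = 6 and 5). It was called higher at day 6 by 0.74 ± 0.21 (adjusted p = 0.00938) and not at day 4 (0.17 ± 0.21, adjusted p = 0.618). The 250 bases before the Wnt4 start are given as the promoter of a ligand that was higher at day 6. They cover chr4:137277385-137277634 on the plus strand (GRCm38.p6), are 85.2% G or C against a median of 52.4% over all windows, and hold 8 GC boxes, counting overlapping matches, in capitals.
Wnt4: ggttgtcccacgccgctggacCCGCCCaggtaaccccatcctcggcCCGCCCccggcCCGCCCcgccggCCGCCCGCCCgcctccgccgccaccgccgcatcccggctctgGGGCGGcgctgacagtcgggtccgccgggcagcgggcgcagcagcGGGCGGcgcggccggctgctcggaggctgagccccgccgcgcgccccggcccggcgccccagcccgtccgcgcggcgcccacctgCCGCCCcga

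Wnt5a, the ligand that acts through Ror2 without beta-catenin and that forms part of crypt repair after wounding of mouse colon, lies on chromosome 14 (28504543 to 28527448). Its brightest probe set, 1436791_at, read 342, 367, 371, 386 and 391 on day 0. The lowest, median and highest signals were 396, 450.5 and 549.6 at day 2, 488, 595 and 719.6 at day 4, and 385, 481 and 650.1 at day 6. All arrays of day 2 and of day 4 lay above all of day 0, and day 6 overlapped day 0 through mouse 3 at 385. Groups wholly apart in the upward direction were 1.27% of all genes at day 2 and 7.61% at day 4. Wnt5a was higher by 0.63 ± 0.12 at day 4 (1.55-fold, adjusted p = 0.000976 in limma) and by 0.41 ± 0.12 at day 6 (1.33-fold, adjusted p = 0.00942), and its day 2 change of 0.29 ± 0.12 was not called (adjusted p = 0.287).

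The other Wnt5a probe sets did not all move alike. Probe set 1437673_at had means of 249 ± 64.3 at day 4 and 153 ± 54.1 at day 0 (SD, n = 6 and 5), and was called higher there by 0.67 ± 0.20 (adjusted p = 0.0182, limma over kept probe sets). At day 6 its change of 0.41 ± 0.20 was not called (adjusted p = 0.117), so 1 of the 3 kept probe sets was called at day 6. Probe set 1448818_at was not called on any day and had changes of -0.23, -0.34 and -0.09 at days 2, 4 and 6. The dimmest, 1456976_at, was below the array median on every array. With the kept probe sets averaged, Wnt5a was not called at day 4 (0.32, adjusted p = 0.111) or at day 6 (0.25, adjusted p = 0.177), so its calls rest on which probe set is read.

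Wnt11, a ligand known in mouse for branching of the kidney's ureteric bud, was not called on any day. Probe set 1450772_at read 49.6, 68.3, 72.7, 114 and 116 on day 0. The lowest, median and highest signals were 67.0, 89.9 and 169.8 at day 2, 90.3, 113 and 148 at day 4, and 104, 118 and 152 at day 6. The groups overlapped at all days and the signal passed the array median on 10 of 23 arrays. At day 6 the change was 0.49 ± 0.23, with a 95% interval of 0.02 to 0.96 (adjusted p = 0.102 in limma). Wnt11 lies on chromosome 7 (98835084 to 98854747). Of the 9 promoter windows found for 6 of the 10 genes, this one and that of a Wnt5b start hold a TCF/LEF core, and the Wnt11 window is given to show where it stands. Distances are counted from the annotated start that follows this window, which lies inside the gene span given above. The core starts 51 bases before that start and directly follows a GC box, and the TATA box starts 29 bases before that start. The window covers chr7:98834862-98835111 on the plus strand (GRCm38.p6), with motifs in capitals.
Wnt11: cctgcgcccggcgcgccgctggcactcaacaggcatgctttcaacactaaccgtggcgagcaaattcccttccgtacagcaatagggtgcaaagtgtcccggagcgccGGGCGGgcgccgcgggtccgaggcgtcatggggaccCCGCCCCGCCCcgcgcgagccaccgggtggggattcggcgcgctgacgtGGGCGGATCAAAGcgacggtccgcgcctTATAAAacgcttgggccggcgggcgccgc

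Wnt6, Wnt2b and Wnt5b showed no called change. The Wnt6 probe set 1419708_at read 124, 144, 147, 207 and 235 on day 0, and its means were 171 ± 47.3, 176 ± 25.9, 171 ± 34.3 and 171 ± 45.1 at days 0, 2, 4 and 6 (SD, n = 5, 6, 6 and 6). Its day 6 change was -0.00 ± 0.18 with a 95% interval of -0.38 to 0.38, so shifts of up to that size in either direction lie within it. A second Wnt6 probe set, 1435980_x_at, stayed below the array median on every array, with daily means of 27.1, 14.4, 32.8 and 42.9. It was not called in any comparison of the fit without a filter. Wnt2b, a mesenchymal ligand that signals through beta-catenin, read 6.88, 7.58, 46.7, 54.1 and 73.7 on day 0 at 1421465_at and stayed below the array median on every array, with later daily means of 51.9, 16.8 and 32.5. Wnt5b, the closest relative of Wnt5a, had daily means of 86.5, 62.1, 74.6 and 82.6 at 1439373_x_at and of 51.4, 33.6, 54.2 and 28.1 at 1422602_a_at. In the fit without a filter, limma called neither Wnt2b nor Wnt5b in any comparison.

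**Figure D3:**
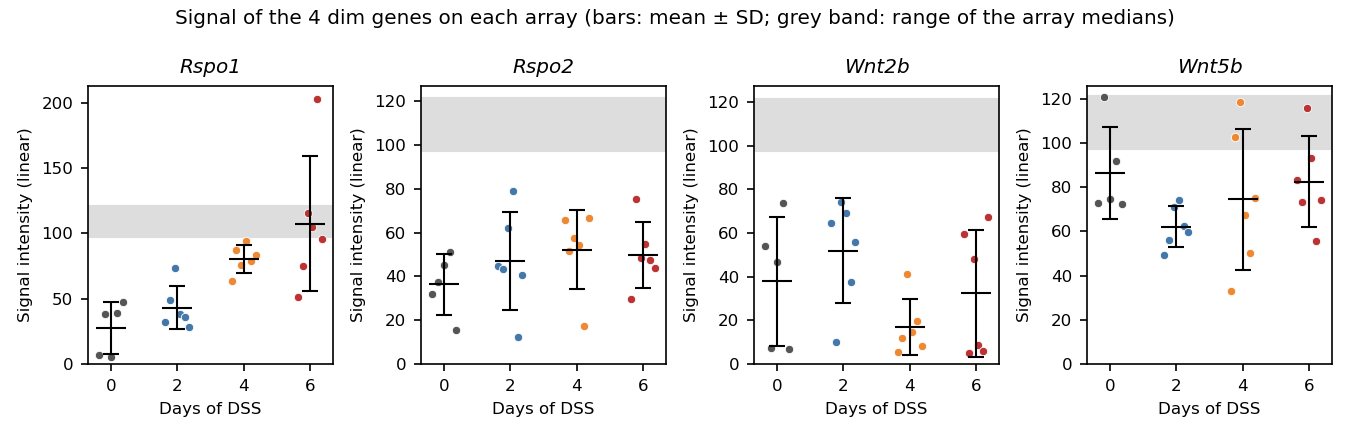
Signal intensity (MAS5, linear) of the brightest probe set of Rspo1, Rspo2, Wnt2b and Wnt5b on every array at days 0, 2, 4 and 6, with the mean and SD of each day (n = 5 on day 0 and 6 on each later day) and a grey band over the range of the array medians, 97.3 to 121. All arrays of days 4 and 6 lie above those of day 0 for Rspo1, and the days overlap for the other genes.

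Between successive days, Rspo3 and the brightest probe set of Sfrp1 were called higher in both intervals. At day 4 against day 2, 3 of the 6 genes were called higher (Rspo3, Sfrp1 and Wnt5a), where 9.43% of all genes were, and 0 lower by limma, where 4.09% were. Rspo3 was higher by 0.67 ± 0.16 (adjusted p = 0.00936), Sfrp1 by 0.59 ± 0.14 (adjusted p = 0.00908) and Wnt5a by 0.34 ± 0.11 (adjusted p = 0.043). At day 6 against day 4, 2 of the 6 were called higher (Rspo3 and Sfrp1), where 9.09% of all genes were, and 0 lower, where 13.7% were. Sfrp1 was higher by 0.71 ± 0.14 (adjusted p = 0.000627) and Rspo3 by 0.53 ± 0.16 (adjusted p = 0.0165). The other 4 Sfrp1 probe sets were not called at day 4 against day 2, with changes of -0.16 to 0.36 (adjusted p of 0.204 or more in limma over kept probe sets), and all 4 were called at day 6 against day 4, with changes of 0.92 to 1.01. Wnt5a differed by -0.22 ± 0.11 between day 6 and day 4, with a 95% interval of -0.45 to 0.01, and was not called (adjusted p = 0.157). Neither successive comparison had a gene of the 6 that was lower at an unadjusted p under 0.05. The Wnt5a call at day 4 against day 2 was lost when any 1 of 8 arrays was left out (day 2 mice 1, 6, 7 and 52, and day 4 mice 1, 3, 4 and 8), with an adjusted p of at most 0.111. Wnt4 was not called at day 4 against day 2 (0.52 ± 0.18, adjusted p = 0.0509), and was called there without day 2 mouse 8, day 4 mouse 8, day 6 mouse 3 or day 6 mouse 21. The Rspo3 call at day 6 against day 4 was lost without day 6 mouse 4 (adjusted p = 0.0504).

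**Figure D4:**
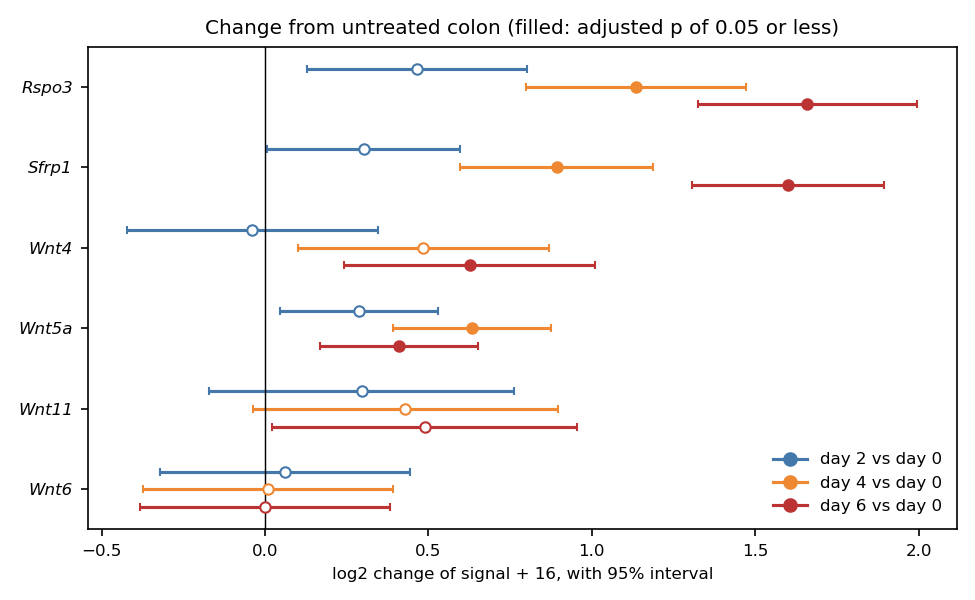
Log2 change against day 0 of the 6 tested genes at days 2, 4 and 6, with 95% intervals from limma and filled points for called changes. The intervals of Rspo3 and Sfrp1 lie above 0.59 at day 4 and above 1.30 at day 6, and that of Wnt6 spans 0 at each day.

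Across the 4 days, the F test called 4 of the 6 genes, where 43.6% of all genes were called. The adjusted p was 7.8e-08 for Sfrp1, 3.35e-07 for Rspo3, 0.00127 for Wnt5a and 0.00667 for Wnt4, and it was 0.247 for Wnt11 and 0.985 for Wnt6. The F test no longer called Wnt5a with probe sets averaged or with the beta-actin ratio as a covariate, nor Wnt4 with the hybridization covariate or with the mouse number as a block. Over the 6 tested genes the median log2 change was 0.29, 0.56 and 0.56 at days 2, 4 and 6, beside 0.01, 0.06 and 0.02 over all genes.

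The day 4 calls were lost when either technical control that moved with the days was added as a covariate. With the hybridization controls as a covariate, limma called 0 of the 6 genes at day 4 against day 0 (3 were higher at an unadjusted p under 0.05, as were 11.7% of all genes), with changes of 0.86 for Rspo3 (adjusted p = 0.067), 0.85 for Sfrp1 (adjusted p = 0.0536) and 0.71 for Wnt5a (adjusted p = 0.0528). With the beta-actin ratio as a covariate, limma again called 0 at day 4 (4 were higher at an unadjusted p under 0.05, as were 11.1% of all genes), with changes of 1.19 for Rspo3 (adjusted p = 0.0502), 0.90 for Sfrp1 (adjusted p = 0.0726) and 0.57 for Wnt5a (adjusted p = 0.145). Over all genes, calls at day 4 numbered 168 with the first covariate and 80 with the second, against 2043 without. At day 6, Rspo3 and Sfrp1 were called under both covariates, by 1.31 and 1.55 with the first and 1.69 and 1.61 with the second. Wnt4 and Wnt5a were not called at day 6 with the hybridization covariate (adjusted p = 0.606 and 0.15), and Wnt5a was not with the beta-actin ratio (adjusted p = 0.0518).

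Markers of other cell types moved on the same days, where 12.1% of all genes were called higher at day 4 and 18.1% at day 6. Fibroblast markers (Col1a1, Col1a2, Col3a1, Dcn, Lum and Pdgfra) summed to 37883 to 58361 on day 4 and 49283 to 81816 on day 6, against 34121 to 41254 on day 0, with 2 of 6 called higher at day 4 and 6 of 6 at day 6. Leukocyte markers summed to 7627 to 12011 on day 4 and 12374 to 22729 on day 6, against 4881 to 8811 on day 0, with 2 and 6 of 6 called higher. Endothelial markers summed to 2979 to 5479 on day 4 and 2892 to 4830 on day 6, against 2283 to 3217 on day 0, with 5 and 2 of 6 called higher. Squamous markers summed to 837 to 26583 on day 4 and 17002 to 39390 on day 6, against 5381 to 9317 on day 0, with 0 and 3 of 6 called higher. Smooth muscle markers summed to 86659 to 111506 on day 4 and 64964 to 92429 on day 6, against 72752 to 82451 on day 0, with 4 and 0 of 6 called higher, and 4 of 6 were called lower at day 6 against day 4. Enteric neuron and glia markers summed to 1325 to 2120 on day 4 and 1147 to 1882 on day 6, against 882 to 1037 on day 0, with 3 of 5 tested called higher on both days. Mesothelial markers summed to 328 to 490 on day 4 and 259 to 490 on day 6, against 127 to 245 on day 0. Of these 4, 1 was tested, and it was called higher on both days. Skeletal muscle markers summed to 1249 to 33797 on day 4 and 2788 to 46514 on day 6, against 5651 to 11982 on day 0. On both days 0 of 5 were called. Of the colon epithelium markers, 1 of 6 was called lower at day 4 and 0 at day 6, with 4.32% and 14.3% of all genes lower. At day 4 against day 2, 4 of 6 were called lower, where 4.09% of all genes were. The part of these cell types in the rise of Rspo3, Sfrp1, Wnt4 and Wnt5a was not tested. In RNA of whole tissue, a change in the number of cells that make a transcript and a change in RNA per cell cannot be told apart. With the 4 arrays left out that were high in pancreatic or low in squamous genes, a choice made after the data were seen, Rspo3 was higher by 1.17 at day 4 and 1.69 at day 6 and Sfrp1 by 0.92 and 1.61, all called. Wnt4 and Wnt5a were also called on both days without those arrays, by 0.64 and 0.65 for Wnt4 and 0.63 and 0.43 for Wnt5a.

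Among the mice of day 6, mouse 21 was highest and mouse 4 second for Rspo3 (1329.6 and 1294.6) and Sfrp1 (4775 and 3416). The same held for Wnt4 (617 and 416), Wnt5a (650.1 and 567) and Rspo1 (203 and 115), each gene read by its brightest probe set. Other probe sets did not all give this order. At 1448818_at of Wnt5a, mouse 21 was lowest at 165 and mouse 4 highest at 312. For Wnt6 the order differed, with mouse 7 highest at 228, and mouse 7 was also highest for Wnt11 at 152. Mouse 21 also had the highest summed signal of the fibroblast markers, 81816, and of the leukocyte markers, 22729. For the fibroblast markers mouse 7 came next at 63342 and mouse 4 after it at 60540. Mouse 4 was second for the leukocyte markers at 18020. Leaving out mouse 21 left all 4 calls at day 6 in place.

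For the 3 genes with the lowest F test p, the genes with the most similar course over the 23 arrays were taken by the root mean square difference of mean-centred log2 values. Sfrp1, which itself varied by 0.65 about its mean, was nearest to Abcc9 (0.18), a potassium channel subunit of smooth muscle and pericytes, then to Col18a1 (0.18), a basement membrane collagen, and Ifitm3 (0.19), an interferon-induced membrane protein. Rspo3, which varied by 0.67, was nearest to Igfbp4 (0.24), which binds insulin-like growth factors, then to Sulf1 (0.25), a heparan sulfatase of the cell surface, and Pdpn (0.25), podoplanin of lymphatic endothelium and stromal cells. Wnt5a, which varied by 0.28, was nearest to Ankrd46 (0.15), Eid1 (0.16) and Tcf21 (0.16), a transcription factor of mesenchyme. At day 6 Col18a1 was higher by 1.66 and Pdpn by 1.71. All these arrays share the same days, so likeness over them includes whatever else differed between days.

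Other extracellular genes of the pathway were described from lists, whose counts stand beside shares of all genes of 12.1% higher and 4.32% lower at day 4, and 18.1% higher and 14.3% lower at day 6. Of the other secreted Wnt inhibitors, 7 of 15 were tested, and 4 were called higher and 0 lower at day 4 and again at day 6, with a median change of 0.48 and 0.63. Sostdc1, which binds Lrp6 and bone morphogenetic proteins, averaged 357 ± 164 at day 6 and 125 ± 10.9 at day 0 (SD, n = 6 and 5), higher by 1.30 ± 0.21. Sfrp4 was higher by 1.07 ± 0.15 at day 6 and Sfrp2 by 0.91 ± 0.22, both relatives of Sfrp1, and Frzb, of the same family, was higher by 0.77 ± 0.17 at day 4. Of the remaining Wnt ligands and Rspo4, 2 of 14 were tested, and Wnt7b, a ligand of epithelia, was called higher by 0.89 ± 0.27 at day 4 and by 1.19 ± 0.27 at day 6. Of 9 tested genes of Wnt processing and secretion, 2 were called higher at day 4, and 3 were higher and 1 lower at day 6. The lower gene was Wls, with a change of -0.31 ± 0.11 (adjusted p = 0.029 in limma). Sulf1 was higher by 1.36 ± 0.16 at day 6 and Sulf2, its relative, by 0.88 ± 0.14, the second read by a probe set of the _x_at design. Gpc3, a proteoglycan that binds Wnt proteins, was higher by 0.76 ± 0.29 at day 6, and Gpc6, of the same family, by 0.42 ± 0.13 at day 4.

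Receptors were called in both directions. Of 19 tested, 3 were called higher and 1 lower at day 4, and 3 higher and 5 lower at day 6, with medians of 0.17 and 0.03. Over all genes, 12.1% were called higher and 4.32% lower at day 4, and 18.1% and 14.3% at day 6. Both day 4 counts were near those shares. At day 6 the count of higher receptors was below its share, and that of lower receptors was above it. Lgr5, the R-spondin receptor of crypt stem cells, averaged 157 ± 17.6 at day 4 and 122 ± 31.0 at day 6, against 251 ± 43.6 at day 0, with called changes of -0.61 ± 0.19 and -0.97 ± 0.19. Rnf43, the ubiquitin ligase that R-spondins restrain, averaged 217 ± 82.9 at day 6 and 402 ± 45.3 at day 0, with a change of -0.93 ± 0.21. Ror2, the receptor of Wnt5a, was higher by 0.49 ± 0.13 at day 4, Lrp6 by 0.40 ± 0.07 at day 4 and Fzd1 by 0.79 ± 0.16 at day 6. At day 6 Rspo3 was above day 0 while Lgr5 and Rnf43 were below it.

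Of 25 tested genes of transduction inside the cell, 5 were called higher and 0 lower at day 4, and 4 higher and 1 lower at day 6, beside the same shares of all genes. At day 6 neither count exceeded the share of all genes. Prickle1, of the planar polarity branch, was higher by 0.62 ± 0.16 at day 4 and 0.80 ± 0.16 at day 6, and Prickle2 by 0.40 ± 0.11 and 0.49 ± 0.11. Csnk1e, a kinase that acts on Dishevelled, was higher by 0.52 ± 0.12 at day 4, and Tcf7l1, a repressor that binds TCF sites, changed by -1.07 ± 0.17 at day 6. Of 14 tested target genes of crypts, 0 were called higher and 1 lower at day 2, 1 and 3 at day 4, and 2 and 7 at day 6, with medians of -0.27, -0.06 and -0.20. Over all genes, 0.0642%, 4.32% and 14.3% were called lower on those days, and 0.0160%, 12.1% and 18.1% higher. Axin2, a feedback inhibitor and target of beta-catenin, changed by -1.03 ± 0.15 at day 2 (adjusted p = 0.00571 in limma) and -0.75 ± 0.15 at day 4. Ascl2, a transcription factor of crypt stem cells, changed by -1.20 ± 0.25 at day 6, and Sox9, a factor of the crypt base, by -0.50 ± 0.17 at day 4. The genes called higher at day 6 were Ccnd1 and Cd44. Lgr5, Rnf43 and Znrf3 belong to both the receptor and the target list.

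**Figure D5:**
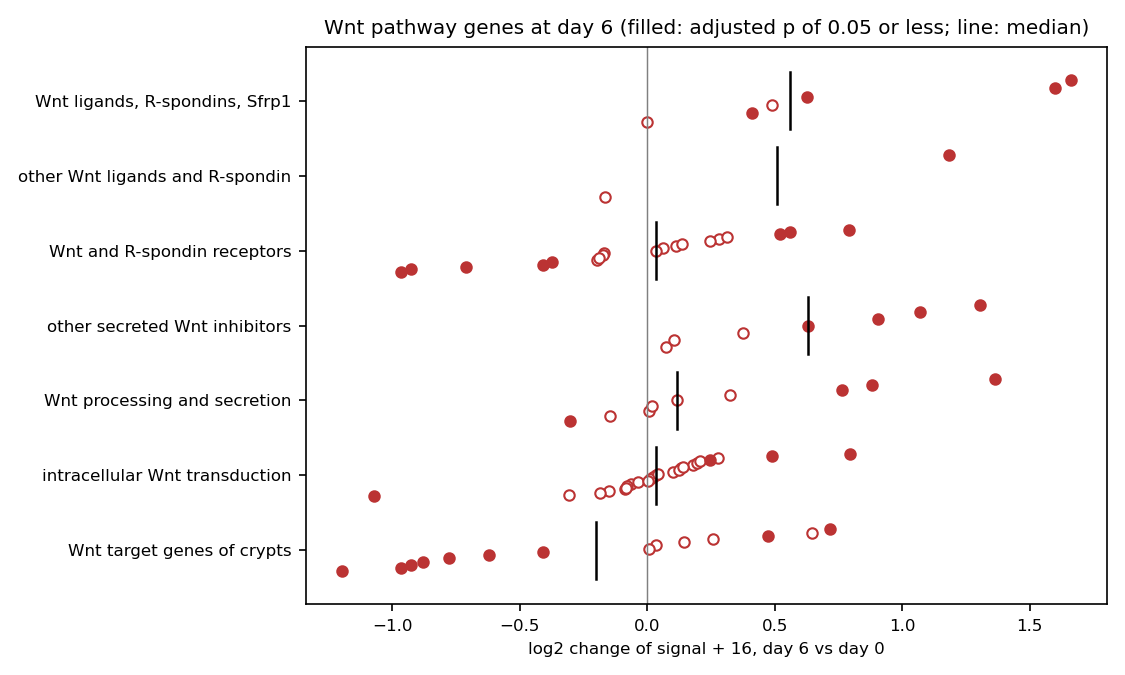
Log2 change at day 6 against day 0 of the tested genes of each Wnt pathway list, 1 point per gene, with genes called by limma filled, a line at each list's median and the 6 tested Wnt ligands, R-spondins and Sfrp1 in their own row. The 4 called secreted inhibitors lie above 0, and 7 of the 9 called crypt targets lie below 0.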

How the data were processed

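Total RNA of 23 mouse colons went onto 1 array each, and mice were grouped by the day in the labels. The authors deposited linear signal intensities, made with MAS5 per the submitters' processing notes (no version given). They were not normalized further. The 64 control probe sets were left out, probe sets above their array's median on at least 5 arrays were kept (24627), and each gene was read by its brightest one. The platform annotation gave the symbols. Values of log2(signal + 16), a scale that understates changes of dim genes, were fitted with limma 3.58.1 in R 4.3.3 (eBayes with trend, all 4 days in 1 fit, two-sided), after a test on simulated data, and p-values were adjusted over all genes. The number of arrays limits the precision. Coordinates and promoters are from RefSeq (GRCm38.p6). The genes and lists were chosen with earlier results of these data known. From each pathway list and comparison with day 0, up to 3 called genes with the largest change were named, and Ccnd1, Cd44, Znrf3 and Wls were added after their values were seen. Alternatives changed the pseudocount, filter, normalization, probe set choice, trend, covariates, mouse number block and arrays left out. Mouse numbers did not pair the samples across days.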

Additional observations from a re-analysis of the deposited data

Results flagged for a closer look

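In the 6 arrays of day 4, Rspo2 (probe set 1455893_at) read 17.5 on mouse 7, far below the other 5, which lay between 51.6 and 66.8. The gap was 0.776 of the group's range, above Dixon's limit of 0.625 for 6 samples. It was 1 of 40 groups looked at, and chance alone flags about 1 group in 20. The gene was below the array median on every array.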

How the results depend on the processing

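No call reversed under any alternative that read each gene by 1 value. Single genes were not compared in this way when every kept probe set was fitted. In that fit, day 4 changes were -0.34 for 1448818_at of Wnt5a and -0.05 for 1448395_at of Sfrp1, neither of them called. Over the single-gene results, leaving out 1 array left the call or its absence unchanged in 675 cases. It gained a call in 6 cases and lost one in 9, and for the other alternatives these numbers were 379, 5 and 31. Among the unchanged cases, small changes that were not called could switch sign. That of Wnt6 at day 2 against day 0 (0.06) ran from -0.04 to 0.18 when 1 array was left out. Counts of genes called higher when 1 array was left out ran from 3 to 4 at day 4 and 4 to 4 at day 6 against day 0, from 2 to 4 at day 4 against day 2, and from 1 to 2 at day 6 against day 4. With probe sets averaged, 1 gene (Rspo3) was called higher at day 4 against day 0 and 1 at day 4 against day 2, where the main counts were 3 and 3. With the hybridization control covariate, limma called 0 at day 4 against day 0 (3 at an unadjusted p under 0.05), 2 at day 6 against day 0, 0 at day 4 against day 2 (3 unadjusted) and 1 at day 6 against day 4. With the beta-actin covariate it called 0 at day 4 against day 0 (4 unadjusted), 0 at day 4 against day 2 (3 unadjusted) and 1 at day 6 against day 4. These covariates follow the days, so less of the difference between days is left to test, and the cause of the lost calls was not tested.

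Over 17 pairs of same-numbered mice of different days, correlations of deviations from the day means ran from -0.16 to 0.70 (median 0.04) and 3 were over 0.1, so the numbers were not taken to pair the samples. The highest was that of mouse 8 of days 2 and 4, the 2 arrays low in squamous genes. With the mouse number as a replicate block, 2 genes (Rspo3 and Sfrp1) were called higher at day 6 against day 0, and Wnt4 (0.55, adjusted p = 0.123 in limma) and Wnt5a (0.40, adjusted p = 0.0718) were not. Rspo1, Rspo2, Wnt2b and Wnt5b lay mostly below their array's median, so the sizes of their log2 changes depend on the pseudocount.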
